A study of Mus musculus with 12 samples.

Results

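Collagen genes encode the chains that fold, always in threes, into the triple-helical proteins of connective tissue and of basement membranes. They were taken here as the protein-coding genes whose symbol has the form Col, a type number, the letter a and a chain number. The rule found 44 collagen genes among the 54532 genes of the deposited expression table. Of these, 27 had at least 1 FPKM in at least 4 libraries and were tested for differences between genotypes together with all other genes that passed the same filter, 13643 in all. FPKM, fragments per kilobase of gene scaled to the number of counted fragments in the library, is scaled by gene length, so levels of different genes can be set beside each other. The other 17 collagen genes stayed low: the highest mean over the libraries was 0.863 FPKM, and 14 of them reached 1 FPKM in no library. They were Col2a1, Col10a1, Col11a2, Col13a1, Col19a1, Col20a1, Col22a1, Col23a1, Col24a1, Col25a1, Col26a1, Col28a1, Col4a3, Col4a4, Col6a4, Col6a5 and Col6a6, of which Col11a2, Col13a1 and Col23a1 reached 1 FPKM in some library.

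The RNA came from mammary glands with hyperplasia. The mice were females of strain FVB/N that carry the MIC transgenes, with doxycycline at 2 mg/ml in the drinking water and titles that give 2 weeks. In MIC mice, doxycycline switches on the polyoma virus middle T oncogene in the mammary epithelium, through a transactivator under the MMTV promoter, and Cre recombinase is made from the same transcript, so the oncogene and the doxycycline are shared by all 3 groups. The groups were MIC Stat3 ko, MIC Chi3l1 ko and MIC WT, with 4 libraries each. The labels do not describe the deleted alleles, so the cells in which each gene was lost are known only as far as the genotype names say, and they do not say what separates 1 library of a group from another; p-values therefore measure the spread between these libraries, which may be partly technical.

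The types of collagen differ in how they assemble. Types I, III and V form the striated fibrils of stroma, and in the mammary gland their main source is the fibroblast. Types II, XI, XXIV and XXVII are counted with them as fibrillar types. Types IX, XII, XIV, XVI and several rarer ones do not form fibrils alone but sit on the surface of fibrils (FACIT collagens, fibril-associated collagens with interrupted triple helices). Type IV forms the sheet-like network of the basement membrane that separates mammary epithelium from stroma; its chains combine as 2 α1 with 1 α2, as α3, α4 and α5 together, or as 2 α5 with 1 α6. Type VI forms beaded filaments next to cells, type VII anchors epithelial basement membrane to the stroma below, type XVII is a transmembrane protein of hemidesmosomes, and types XV and XVIII carry glycosaminoglycan chains in and near basement membranes. Type II, type IX and type XI are best known together, from cartilage.

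The 12 libraries held between 16217143 and 22607123 counted fragments, and collagen genes took between 0.345% and 1.11% of them. Stat3 had 18.7, 17.8, 14.3 and 12.2 FPKM in Stat3 ko, and averaged 50.01 ± 2.67 FPKM in Chi3l1 ko and 48.0 ± 1.93 FPKM in WT (SD, n = 4 each). Chil1, the mouse gene for Chi3l1, had 1, 2, 0 and 0 counts in the Chi3l1 ko libraries, averaged 11.7 ± 5.33 FPKM in Stat3 ko, and averaged 151 ± 46.3 FPKM in WT (SD, n = 4 each). The mitochondrial share of counts was 4.79% in Stat3 ko replicate 1, 3.37% in Stat3 ko replicate 2 and 2.22% in Chi3l1 ko replicate 2. It was below 2% in the other libraries. Replicate numbers follow the order of the samples and pair nothing across groups.

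The collagen profile of the MIC WT gland combined stromal fibril chains with chains of basement membrane and of the fibril surface. The highest mean was that of Col1a1, the α1 chain of type I, at 143 ± 80.6 FPKM (SD, n = 4, as for the other means in this paragraph), and Col3a1, the chain of type III, followed at 143 ± 83.8 FPKM. The third, at 82.1 ± 19.9 FPKM, was Col9a1, the α1 chain of type IX, and the fourth was Col16a1, the chain of type XVI, at 66.8 ± 6.86 FPKM. The spread of the 4 WT libraries separates neighbours in that order poorly, because Col1a1 and Col3a1 both ranged more than 2-fold. Among the chains at lower levels were Col1a2 at 64.2 ± 34.4 FPKM, Col4a1 at 50.2 ± 7.83 FPKM, Col6a1 at 27.3 ± 12.4 FPKM and Col11a1 at 10.8 ± 3.91 FPKM.

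Collagen genes differed in how far WT libraries lay apart. The SD was 7.96% of the WT mean for Col9a3, 10.3% for Col16a1, 11.6% for Col4a5 and 14.4% for Col4a6. It was 56.2% for Col1a1, 58.0% for Col5a1, 58.7% for Col3a1 and 73.4% for Col14a1. WT replicate 3 was the highest WT library for 20 of the 27 tested genes, and WT replicate 4 was the lowest for 22. The stromal chains thus carried most of the difference between WT glands, and Col9a3, Col16a1, Col4a5 and Col4a6 were nearly level across them. Col27a1 (15.3%), Col4a1 (15.6%) and Col15a1 (15.6%) were close to these. Col9a1 (24.2%), Col7a1 (26.0%) and Col11a1 (36.1%) were less level. In Stat3 ko, replicate 1 was the highest library for 14 genes and replicate 2 the lowest for 22, and in Chi3l1 ko replicate 2 was the highest for 19.

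**Figure D1:**
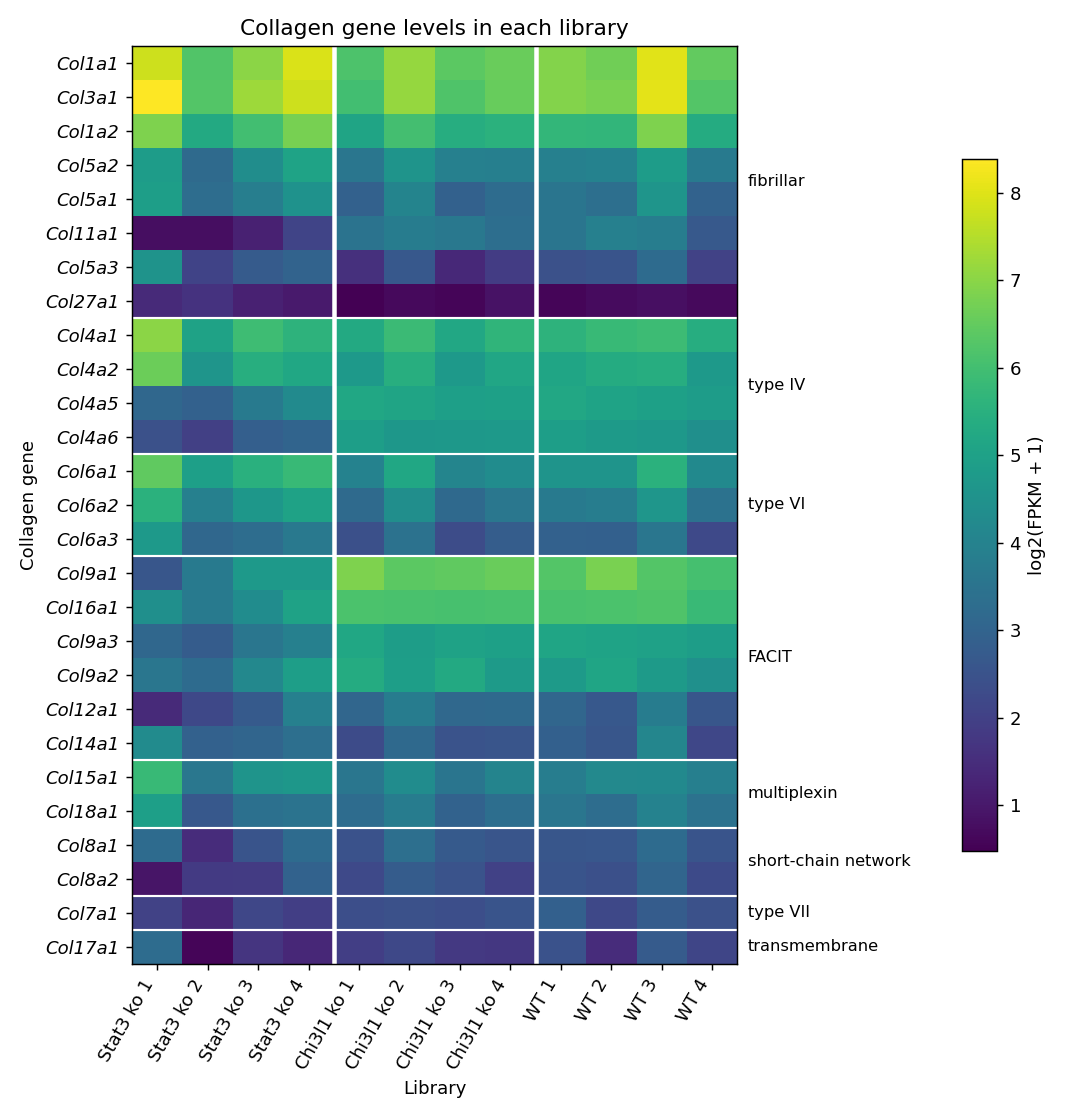
Level of each of the 27 tested collagen genes, as log2(FPKM + 1), in the 4 Stat3 ko, 4 Chi3l1 ko and 4 WT libraries; rows are grouped by collagen class, and yellow cells are the highest and dark violet cells the lowest. The Col9a1, Col9a3, Col16a1, Col11a1, Col4a5 and Col4a6 rows are darker in all 4 Stat3 ko libraries than in any other library, and the Chi3l1 ko and WT columns look alike.

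In Stat3 ko glands, 7 collagen genes fell and 1 rose relative to WT; the other 19 tested did not pass the threshold of an adjusted p under 0.05 in limma. Those that fell were Col9a1, Col9a3 and Col16a1 of the FACIT class, Col11a1 of the fibrils, Col4a5 and Col4a6 of the basement membrane and Col7a1 of the anchoring fibrils. The gene that rose was Col27a1. Over all tested genes limma called 14.0%, with 8.39% lower and 5.61% higher in Stat3 ko. The same 8 collagen genes were those whose Stat3 ko and WT libraries did not overlap, against 11.6% of all tested genes lower without overlap and 9.67% higher without overlap. The median log2 difference, taken here and below on the log2(FPKM + 1) scale as Stat3 ko minus WT, was 0.21 over the 27 collagen genes and −0.02 over all tested genes, so the collagen genes did not move as a block: 15 had positive and 12 negative differences.

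**Figure D2:**
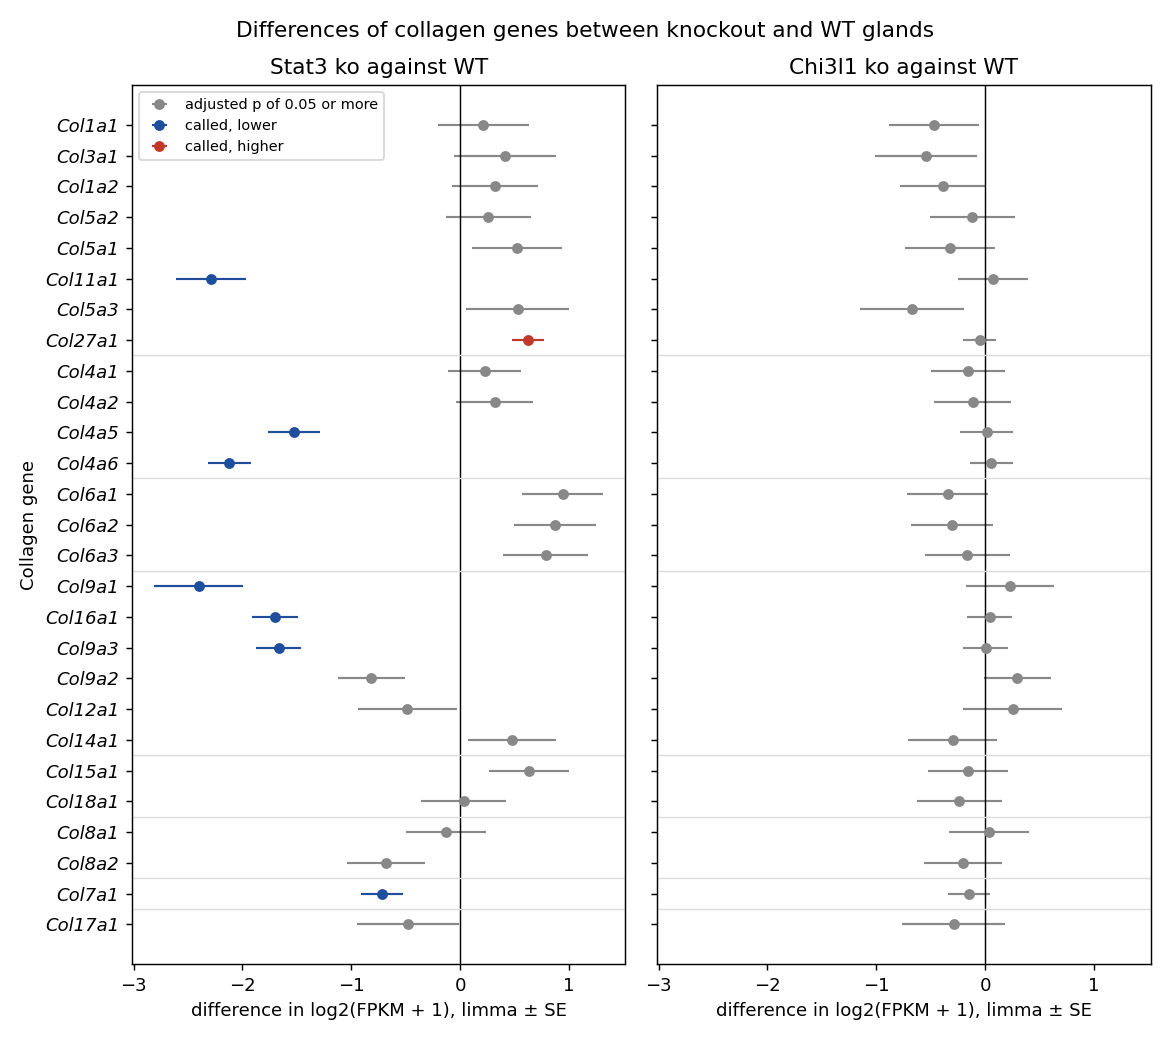
Difference between genotypes in log2(FPKM + 1) for each of the 27 tested collagen genes, with limma's standard error as the bar: Stat3 ko minus WT on the left, Chi3l1 ko minus WT on the right. Blue marks genes called lower, red genes called higher and grey genes not called; 7 are blue and 1 is red on the left, and all 27 are grey on the right.

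Type IX collagen held the largest fall on the log2(FPKM + 1) scale. Col9a1 (ENSMUSG00000026147, GRCm38 chromosome 1, 24177610 to 24252684, plus strand) had 5.01, 12.1, 25.8 and 26.0 FPKM in Stat3 ko, 116, 83.1, 87.0 and 94.9 FPKM in Chi3l1 ko and 76.6, 111, 76.3 and 64.8 FPKM in WT. All 4 Stat3 ko libraries lay below every other library, and the Chi3l1 ko and WT libraries overlapped. The Stat3 ko mean was 17.2 ± 10.4 FPKM against 82.1 ± 19.9 FPKM in WT (SD, n = 4 each), which is 21.0% of WT, and Col9a1 dropped to 12th place among the collagen genes in Stat3 ko. The log2 difference was −2.40 ± 0.41 (SE; limma adjusted p = 0.00550). RefSeq gives Col9a1 a pair of start sites, for a long and a short form of the chain, and the deposited FPKM is 1 value for the gene. Both promoter windows, from 250 bases before to 50 after the start (GRCm38.p6), are printed because Col9a1 had that largest fall among the 27 genes tested, together with the window of Col16a1, the other FACIT gene that was abundant in WT and fell. The windows are chr1:24177360-24177659, plus strand, for the upstream start of Col9a1, chr1:24194953-24195252, plus strand, for its downstream start, and chr4:130047590-130047889, plus strand, for Col16a1. Capitals mark CCAAT (or ATTGG, its reverse complement) and GGGCGG (or CCGCCC).
Col9a1 upstream start: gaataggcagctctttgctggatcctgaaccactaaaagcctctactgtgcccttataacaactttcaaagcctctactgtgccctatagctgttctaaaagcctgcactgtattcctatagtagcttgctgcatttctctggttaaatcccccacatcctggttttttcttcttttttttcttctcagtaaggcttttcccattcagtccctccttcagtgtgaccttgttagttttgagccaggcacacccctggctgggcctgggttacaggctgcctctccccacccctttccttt
Col9a1 downstream start: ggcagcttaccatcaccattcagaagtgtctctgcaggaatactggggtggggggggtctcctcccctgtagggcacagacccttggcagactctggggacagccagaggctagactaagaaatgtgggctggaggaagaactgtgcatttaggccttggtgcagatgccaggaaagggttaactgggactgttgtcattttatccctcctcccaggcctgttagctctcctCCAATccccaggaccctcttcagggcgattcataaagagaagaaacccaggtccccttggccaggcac
Col16a1: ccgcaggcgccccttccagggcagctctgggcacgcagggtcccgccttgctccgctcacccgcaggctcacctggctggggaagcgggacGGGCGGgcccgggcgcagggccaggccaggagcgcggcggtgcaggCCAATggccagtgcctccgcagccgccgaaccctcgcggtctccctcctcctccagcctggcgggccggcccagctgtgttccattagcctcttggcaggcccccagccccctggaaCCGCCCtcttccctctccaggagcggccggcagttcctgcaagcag

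The upstream Col9a1 window held neither motif, the downstream window held 1 CCAAT and no GGGCGG, and the Col16a1 window held 1 CCAAT and 2 of GGGCGG. Among all 32851 RefSeq promoter windows of this length, 37.4% held CCAAT and 35.7% held GGGCGG on either strand. TATAAA (or TTTATA) stood in 13.6% of all windows and TTCCNGGAA, a palindrome of the kind bound by STAT factors, in 1.15%; neither stood in any of these 3 windows. In the 38 windows found for 35 of the collagen genes, CCAAT was present in 34.2%, GGGCGG in 60.5%, TATAAA in 13.2% and TTCCNGGAA in none, with a median GC content of 59.8% against 52.7% over all windows. These letters are a description of the windows and not sites of binding.

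Col9a3, the α3 chain of type IX (ENSMUSG00000027570, GRCm38 chromosome 2, 180597790 to 180622189, plus strand), had 7.63, 5.86, 10.9 and 14.3 FPKM in Stat3 ko, 35.3, 28.4, 32.0 and 30.6 FPKM in Chi3l1 ko and 34.1, 32.5, 31.0 and 28.2 FPKM in WT. Every Stat3 ko library was below every other library, and WT and Chi3l1 ko libraries were close together. Its log2 difference was −1.67 ± 0.20 (SE; limma adjusted p = 0.000739). Col9a2, the α2 chain (ENSMUSG00000028626, GRCm38 chromosome 4, 121039385 to 121055322, plus strand), had 10.9, 8.44, 16.9 and 29.2 FPKM in Stat3 ko, 39.3, 29.1, 38.0 and 26.8 FPKM in Chi3l1 ko and 26.5, 33.7, 26.9 and 20.8 FPKM in WT. Here 3 Stat3 ko libraries lay below all WT libraries and replicate 4 lay among them, and the log2 difference of −0.81 ± 0.31 was not called (SE; limma adjusted p = 0.0919); without Stat3 ko replicate 4 it was −1.13 with an adjusted p of 0.00824. The proportions of partner chains were described by ratios: the ratio of Col9a1 to Col9a2 in FPKM averaged 1.08 ± 0.50 in Stat3 ko, 2.91 ± 0.51 in Chi3l1 ko and 3.03 ± 0.21 in WT (SD, n = 4 each), and the ranges of Stat3 ko and WT did not overlap. The ratio of Col9a1 to Col9a3 averaged 1.73 ± 0.75 in Stat3 ko, 3.01 ± 0.24 in Chi3l1 ko and 2.60 ± 0.54 in WT, and its ranges in Stat3 ko and WT did overlap.

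Col16a1 (ENSMUSG00000040690, GRCm38 chromosome 4, 130047840 to 130099283, plus strand), a FACIT collagen found near cells and in skin, had 20.2, 12.4, 19.1 and 31.8 FPKM in Stat3 ko, 69.9, 68.9, 67.2 and 67.8 FPKM in Chi3l1 ko and 68.8, 69.3, 72.2 and 56.7 FPKM in WT. The highest Stat3 ko library, replicate 4, was well below the lowest WT library, and the Chi3l1 ko libraries lay inside the WT range. Its log2 difference was −1.70 ± 0.21 (SE; limma adjusted p = 0.000808). The remaining FACIT genes tested were not called. Col12a1, whose chain decorates fibrils of tendon and stroma, had 1.69, 3.54, 5.56 and 14.2 FPKM in Stat3 ko, 7.45, 12.9, 7.86 and 8.05 FPKM in Chi3l1 ko and 7.58, 5.36, 13.0 and 5.10 FPKM in WT. Col14a1, of a similar role, had 18.5, 6.65, 7.30 and 9.31 FPKM in Stat3 ko, 3.87, 8.08, 4.67 and 4.97 FPKM in Chi3l1 ko and 6.42, 5.06, 16.1 and 3.45 FPKM in WT. Both genes varied widely within Stat3 ko and their libraries overlapped with WT, with log2 differences of −0.49 ± 0.45 for Col12a1 and 0.48 ± 0.41 for Col14a1 (SE).

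Type XI is the minor fibril collagen that in cartilage lies inside type II fibrils. Col11a1, its α1 chain (ENSMUSG00000027966, GRCm38 chromosome 3, 114030540 to 114220718, plus strand), had 0.692, 0.699, 1.29 and 3.25 FPKM in Stat3 ko, 10.2, 12.8, 11.5 and 9.11 FPKM in Chi3l1 ko and 10.7, 14.1, 13.1 and 5.38 FPKM in WT. All Stat3 ko libraries were below all others, and WT replicate 4 was the lowest of the rest. The Stat3 ko mean was 13.7% of the WT mean, and the log2 difference was −2.29 ± 0.32 (SE; limma adjusted p = 0.00200). Col11a1 can take the place of the α1(V) chain in mixed fibrils, and the ratio of Col11a1 to Col5a1 averaged 0.0870 ± 0.0515 in Stat3 ko, 1.29 ± 0.41 in Chi3l1 ko and 0.966 ± 0.401 in WT (SD, n = 4 each).

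Col27a1 (ENSMUSG00000045672, GRCm38 chromosome 4, 63214004 to 63334991, plus strand), a fibrillar collagen also best known from cartilage, moved the other way at a low level. It had 1.69, 2.09, 1.32 and 1.06 FPKM in Stat3 ko, 0.392, 0.594, 0.504 and 0.813 FPKM in Chi3l1 ko and 0.516, 0.639, 0.748 and 0.606 FPKM in WT. Every Stat3 ko library exceeded every other library, at a mean 246% of WT, and the log2 difference on the log2(FPKM + 1) scale, which understates the change of a gene this low, was 0.63 ± 0.15 (SE; limma adjusted p = 0.0217). This call ended without Stat3 ko replicate 2 (adjusted p = 0.0542), WT replicate 1 (0.0697) or WT replicate 4 (0.0571).

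**Figure D3:**
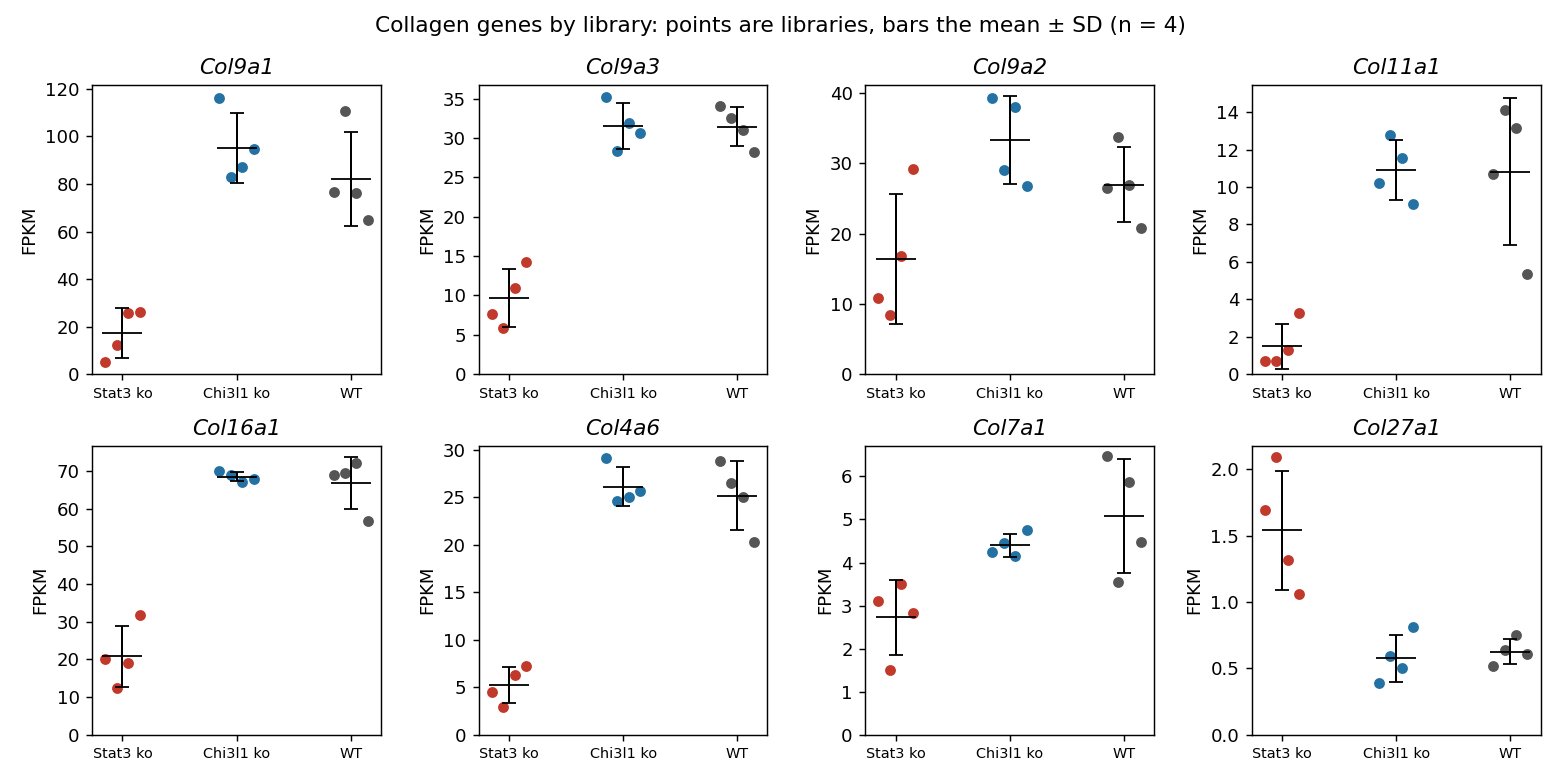
FPKM in each library for the 3 type IX genes, Col11a1, Col16a1, Col4a6, Col7a1 and Col27a1, by genotype, with the mean and SD as bars. Stat3 ko points lie below all WT points for Col9a1, Col9a3, Col11a1, Col16a1, Col4a6 and Col7a1 and above them for Col27a1; for Col9a2 Stat3 ko replicate 4 lies among the WT points.

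Within type IV, the chains of the 2 networks measured here behaved differently in Stat3 ko. Col4a5 (α5; ENSMUSG00000031274, GRCm38 chromosome X, 141475385 to 141689234, plus strand) had 7.70, 6.57, 12.1 and 18.3 FPKM in Stat3 ko, 35.6, 32.9, 29.6 and 30.2 FPKM in Chi3l1 ko and 36.5, 32.4, 30.3 and 27.9 FPKM in WT. Col4a6 (α6; ENSMUSG00000031273, GRCm38 chromosome X, 141165403 to 141474076, minus strand) had 4.46, 2.92, 6.25 and 7.23 FPKM in Stat3 ko, 29.1, 24.6, 25.1 and 25.6 FPKM in Chi3l1 ko and 28.9, 26.5, 25.0 and 20.3 FPKM in WT. For both chains all Stat3 ko libraries were lower than every WT and Chi3l1 ko library. The log2 differences were −1.52 ± 0.24 for Col4a5 (SE; limma adjusted p = 0.00395) and −2.12 ± 0.20 for Col4a6 (SE; limma adjusted p = 0.000159).

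Col4a1 (α1; ENSMUSG00000031502, GRCm38 chromosome 8, 11198423 to 11312826, minus strand) had 128, 32.1, 59.4 and 47.1 FPKM in Stat3 ko, 38.1, 56.8, 36.6 and 49.2 FPKM in Chi3l1 ko and 46.8, 54.7, 58.4 and 41.0 FPKM in WT. Col4a2 (α2; ENSMUSG00000031503, GRCm38 chromosome 8, 11312805 to 11449287, plus strand) had 96.7, 23.5, 42.6 and 35.1 FPKM in Stat3 ko, 26.2, 42.3, 26.3 and 34.7 FPKM in Chi3l1 ko and 33.6, 39.3, 41.1 and 25.7 FPKM in WT. For these chains Stat3 ko replicate 1 was the highest of all libraries and Stat3 ko replicate 2 was below every WT library, so the Stat3 ko libraries lay on both sides of WT. The log2 differences of 0.22 ± 0.34 for Col4a1 and 0.32 ± 0.35 for Col4a2 were not called (SE; limma adjusted p = 0.661 and 0.546), and without Stat3 ko replicate 1 they were −0.15 and −0.07. Col4a3 and Col4a4, the α3 and α4 chains of kidney and lung basement membrane, were below 1 FPKM in every library and were not tested.

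Ratios within a library need no scaling between libraries and show the same split. Col4a1 to Col4a5 stood at 16.6, 4.88, 4.91 and 2.58 in Stat3 ko, at 1.07, 1.73, 1.24 and 1.63 in Chi3l1 ko and at 1.28, 1.69, 1.92 and 1.47 in WT. Every Stat3 ko ratio exceeded every other one. Col4a1 to Col4a2, partners in 1 trimer, averaged 1.35 ± 0.03 in Stat3 ko, 1.40 ± 0.05 in Chi3l1 ko and 1.45 ± 0.10 in WT (SD, n = 4 each), and these ranges were narrow and close. Col4a5 to Col4a6 averaged 2.11 ± 0.35 in Stat3 ko, 1.23 ± 0.07 in Chi3l1 ko and 1.27 ± 0.07 in WT, so the α6 chain was lower in Stat3 ko relative to α5 as well, with no overlap between Stat3 ko and WT.

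The type IV genes lie in pairs, head to head, on the genome. The starts of Col4a1 and Col4a2 were 21 bases apart on chromosome 8, those of Col4a4 and Col4a3 72 bases apart on chromosome 1, and those of Col4a6 and Col4a5 1309 bases apart on the X chromosome. Whether the reads were counted by strand is not given in the sources used here; the exons of Col4a1 and Col4a2 share 22 bases. The promoter windows of the 4 chains expressed in these glands are printed because both chains of 1 pair fell and both chains of the other were not called. They are chrX:141474027-141474326, minus strand, for Col4a6, chrX:141475169-141475468, plus strand, for Col4a5, chr8:11312777-11313076, minus strand, for Col4a1, and chr8:11312555-11312854, plus strand, for Col4a2. Capitals mark the same motifs as above, and the Col4a1 and Col4a2 windows overlap on opposite strands.
Col4a6: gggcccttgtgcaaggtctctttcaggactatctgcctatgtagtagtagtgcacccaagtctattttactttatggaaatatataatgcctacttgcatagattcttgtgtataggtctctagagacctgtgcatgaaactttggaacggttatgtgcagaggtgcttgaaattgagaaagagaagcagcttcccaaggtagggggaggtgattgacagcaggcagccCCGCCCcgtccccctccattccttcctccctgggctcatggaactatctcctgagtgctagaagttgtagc
Col4a5: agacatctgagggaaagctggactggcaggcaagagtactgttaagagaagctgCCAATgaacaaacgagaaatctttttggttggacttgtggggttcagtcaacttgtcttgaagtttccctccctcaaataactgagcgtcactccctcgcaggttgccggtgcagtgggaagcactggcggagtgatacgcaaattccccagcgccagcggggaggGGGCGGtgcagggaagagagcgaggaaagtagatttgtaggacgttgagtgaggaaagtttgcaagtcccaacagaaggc
Col4a1: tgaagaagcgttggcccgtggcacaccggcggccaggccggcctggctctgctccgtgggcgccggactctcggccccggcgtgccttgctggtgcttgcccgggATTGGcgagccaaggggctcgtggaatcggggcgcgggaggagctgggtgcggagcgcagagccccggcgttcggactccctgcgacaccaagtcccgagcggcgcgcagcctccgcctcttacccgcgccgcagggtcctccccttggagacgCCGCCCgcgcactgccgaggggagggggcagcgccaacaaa
Col4a2: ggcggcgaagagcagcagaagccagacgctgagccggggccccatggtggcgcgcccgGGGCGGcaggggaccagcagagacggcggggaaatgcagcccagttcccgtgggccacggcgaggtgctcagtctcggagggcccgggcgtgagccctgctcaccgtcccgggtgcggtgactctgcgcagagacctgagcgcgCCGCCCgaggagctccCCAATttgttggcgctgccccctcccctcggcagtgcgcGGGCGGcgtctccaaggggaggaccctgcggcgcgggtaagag

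The Col4a6 window held 1 GGGCGG and no CCAAT, and the Col4a5 window held 1 of each. The Col4a1 window held 1 of each, and the Col4a2 window held 1 CCAAT and 3 of GGGCGG. None of the 4 held TATAAA or TTCCNGGAA.

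**Figure D4:**
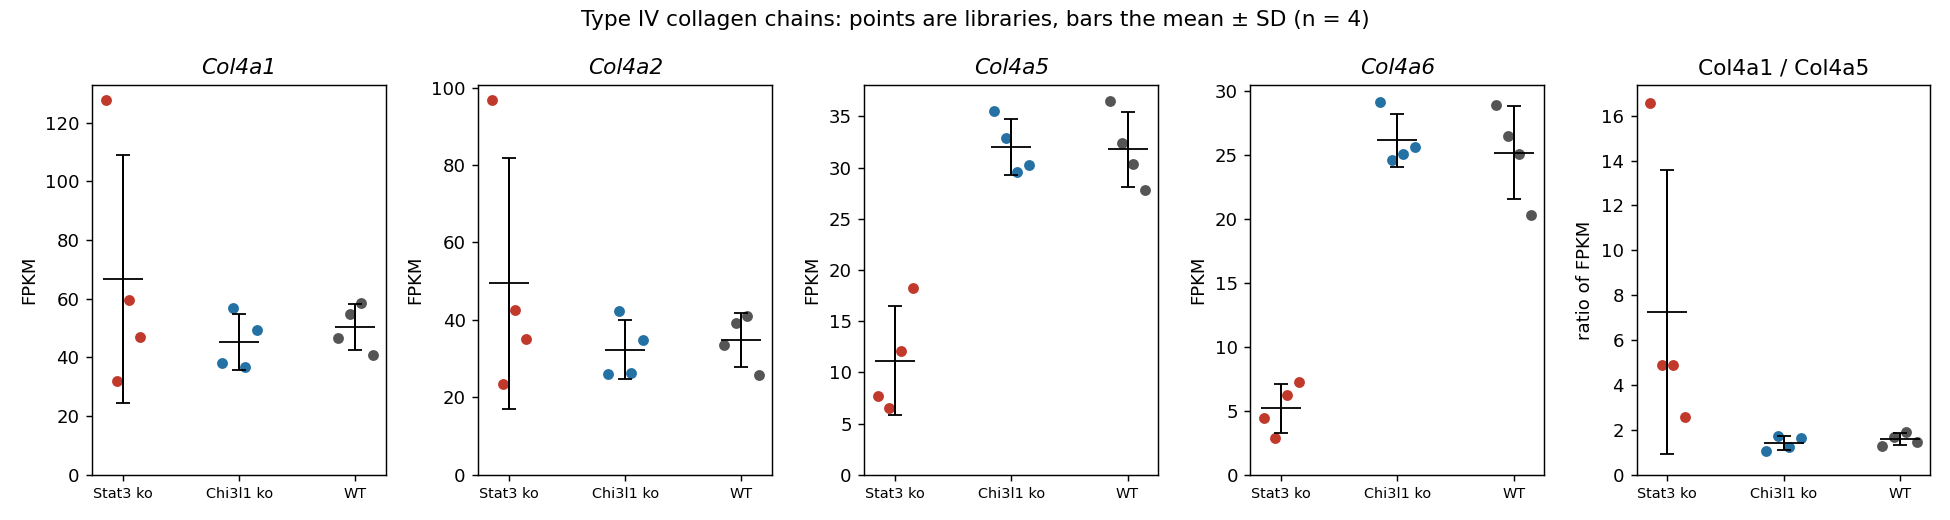
FPKM of Col4a1, Col4a2, Col4a5 and Col4a6 in each library by genotype, with the mean and SD as bars, and in the last panel the ratio of Col4a1 to Col4a5 per library. Stat3 ko points are below all others for Col4a5 and Col4a6, spread across the others for Col4a1 and Col4a2, and above all others for the ratio.

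Col7a1 (ENSMUSG00000025650, GRCm38 chromosome 9, 108953586 to 108984875, plus strand), the chain of anchoring fibrils, had 3.10, 1.496, 3.49 and 2.83 FPKM in Stat3 ko, 4.25, 4.45, 4.16 and 4.75 FPKM in Chi3l1 ko and 6.46, 3.55, 5.86 and 4.48 FPKM in WT. The 4 Stat3 ko libraries were below all WT libraries, although Stat3 ko replicate 3 came close to WT replicate 2. Its log2 difference was −0.71 ± 0.19 (SE; limma adjusted p = 0.0340), and the call ended without Stat3 ko replicate 2 (adjusted p = 0.0620), WT replicate 1 (0.106), WT replicate 3 (0.0862) or WT replicate 4 (0.0678). WT replicates 1 and 3, the highest for Col7a1, were also the libraries with RNA of skin or hair follicle: the summed FPKM of Krt10, Krt1, Lor, Flg, Dsg1a and Krt25 was 37.4 in WT replicate 1 and 67.8 in WT replicate 3, and lay between 1.05 and 2.79 in the other 10 libraries. The part of this RNA in the Col7a1 result was not tested. Col17a1, the hemidesmosomal collagen, had 8.69, 0.499, 2.22 and 1.58 FPKM in Stat3 ko, 2.87, 3.54, 2.47 and 2.37 FPKM in Chi3l1 ko and 4.54, 1.79, 5.75 and 3.38 FPKM in WT. Its libraries overlapped, Stat3 ko replicate 1 being the highest of all, and its log2 difference of −0.48 ± 0.47 was not called (SE; limma adjusted p = 0.493).

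The abundant fibril chains of stroma were not called. Col1a1, on chromosome 11, had 218, 74.0, 129 and 246 FPKM in Stat3 ko, 71.1, 139, 82.3 and 94.2 FPKM in Chi3l1 ko and 119, 101, 263 and 89.5 FPKM in WT. Col1a2, its partner, had 114, 38.0, 62.9 and 108 FPKM in Stat3 ko, 33.0, 64.7, 40.9 and 45.3 FPKM in Chi3l1 ko and 51.5, 50.8, 115 and 39.3 FPKM in WT. Col3a1 had 334, 76.7, 150.0 and 221 FPKM in Stat3 ko, 63.1, 138, 73.4 and 92.1 FPKM in Chi3l1 ko and 120.3, 110.0, 265 and 76.0 FPKM in WT. In all 3 genes the libraries of the genotypes overlapped: Stat3 ko replicate 2 was low within its group, and WT replicate 3 was more than 2-fold above the other WT libraries. The log2 differences were 0.21 ± 0.42 for Col1a1, 0.32 ± 0.39 for Col1a2 and 0.41 ± 0.47 for Col3a1 (SE; limma adjusted p = 0.745, 0.583 and 0.553). Col1a1 to Col1a2, which form 1 trimer, kept a ratio of 2.05 ± 0.17 in Stat3 ko, 2.10 ± 0.07 in Chi3l1 ko and 2.22 ± 0.15 in WT (SD, n = 4 each).

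Type V chains, which help to start fibrils, were not called either. Col5a1 had 28.9, 8.85, 13.4 and 21.8 FPKM in Stat3 ko, 6.72, 15.4, 6.64 and 8.57 FPKM in Chi3l1 ko and 10.8, 9.35, 23.1 and 6.78 FPKM in WT. Col5a2 had 28.1, 8.22, 19.6 and 32.6 FPKM in Stat3 ko, 10.97, 23.0, 14.3 and 13.9 FPKM in Chi3l1 ko and 14.1, 14.7, 27.6 and 12.4 FPKM in WT. Col5a3 had 22.4, 3.18, 5.72 and 6.95 FPKM in Stat3 ko, 1.98, 5.35, 1.63 and 2.72 FPKM in Chi3l1 ko and 4.39, 4.75, 8.47 and 3.10 FPKM in WT. Stat3 ko replicate 1 stood out for Col5a3 and all 3 genes overlapped between genotypes, with log2 differences between 0.26 ± 0.39 for Col5a2 and 0.53 ± 0.48 for Col5a3 (SE), none called.

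Type VI chains had the most positive differences among the collagen genes that were not called. Col6a1 (ENSMUSG00000001119, GRCm38 chromosome 10, 76708792 to 76726168, minus strand) had 86.4, 29.7, 44.5 and 54.4 FPKM in Stat3 ko, 14.7, 35.2, 15.9 and 19.2 FPKM in Chi3l1 ko and 23.0, 22.6, 45.6 and 17.9 FPKM in WT. Col6a2 had 45.6, 14.1, 24.1 and 31.7 FPKM in Stat3 ko, 8.34, 20.1, 8.11 and 11.3 FPKM in Chi3l1 ko and 12.3, 13.2, 23.7 and 10.1 FPKM in WT. Col6a3 had 25.6, 7.61, 8.86 and 11.7 FPKM in Stat3 ko, 4.29, 10.1, 3.99 and 6.04 FPKM in Chi3l1 ko and 6.67, 6.53, 11.1 and 3.63 FPKM in WT. In each of them WT replicates 1, 2 and 4 lay below all 4 Stat3 ko libraries, and WT replicate 3 lay among them. The log2 differences were 0.94 ± 0.37 for Col6a1, 0.87 ± 0.38 for Col6a2 and 0.79 ± 0.39 for Col6a3 (SE; limma adjusted p = 0.102, 0.130 and 0.178).

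Col15a1, of type XV, had 55.1, 11.3, 23.0 and 24.2 FPKM in Stat3 ko, 11.1, 18.9, 10.8 and 15.4 FPKM in Chi3l1 ko and 13.1, 17.5, 17.6 and 13.7 FPKM in WT. In Stat3 ko, 3 libraries were above all WT libraries and replicate 2 was below them, and the log2 difference of 0.63 ± 0.37 was not called (SE; limma adjusted p = 0.242). Col18a1, the source of endostatin, had 29.5, 5.26, 9.59 and 10.2 FPKM in Stat3 ko, 8.73, 13.0, 6.78 and 9.09 FPKM in Chi3l1 ko and 11.1, 8.79, 14.9 and 9.92 FPKM in WT. Its Stat3 ko libraries lay on both sides of WT, with a log2 difference of 0.03 ± 0.39 (SE) whose sign changed with the processing. The short-chain collagens of type VIII, known from vessel walls and the cornea, ranged for Col8a1 from 1.77 to 8.50 FPKM in Stat3 ko, from 4.57 to 9.40 FPKM in Chi3l1 ko and from 4.73 to 8.53 FPKM in WT, and for Col8a2 from 0.909 to 6.83 FPKM in Stat3 ko, from 2.98 to 5.81 FPKM in Chi3l1 ko and from 3.81 to 7.31 FPKM in WT. Their log2 differences were −0.13 ± 0.37 for Col8a1 and −0.68 ± 0.36 for Col8a2 (SE), neither called; without Stat3 ko replicate 4 Col8a2 was called at −1.04 (limma adjusted p = 0.0228).

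The share of FACIT genes in the collagen transcripts of Stat3 ko lay apart from that of WT. FACIT genes summed to 64.9, 49.7, 85.9 and 125.2 FPKM in Stat3 ko, to 272.1, 230.8, 237.0 and 233.4 FPKM in Chi3l1 ko and to 220.3, 257.1, 235.7 and 179.3 FPKM in WT. The highest Stat3 ko sum was below the lowest WT sum. This sum includes Col9a1, Col9a3 and Col16a1, which were called lower above, so its separation restates those calls in part. Col9a1 and Col16a1 were the most abundant FACIT genes in WT. The other FACIT genes tested, Col9a2, Col12a1 and Col14a1, overlapped between Stat3 ko and WT. As a share of the summed FPKM of all 44 genes, FACIT genes made up 10.3 ± 3.61% in Stat3 ko, 33.8 ± 6.65% in Chi3l1 ko and 27.2 ± 5.80% in WT (SD, n = 4 each). Type VI made up 11.4 ± 1.46% in Stat3 ko, 5.20 ± 1.41% in Chi3l1 ko and 5.61 ± 0.58% in WT, and the fibrillar genes 56.4 ± 4.39% in Stat3 ko, 36.7 ± 5.80% in Chi3l1 ko and 44.2 ± 8.94% in WT. The FACIT and type VI shares did not overlap between Stat3 ko and WT, and the fibrillar shares did, since WT replicate 3 was at 57.4%. A share falls or climbs with the other classes, so these shares were not tested.

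Some markers of the cell types in the glands were also called in Stat3 ko against WT. Over all tested genes limma called 5.61% higher and 8.39% lower. The counts of called markers here and in the marker lists below stand against these shares. In bulk tissue, fewer cells of a type and less RNA per cell cannot be told apart. The summed FPKM of 8 luminal epithelial markers (Krt8, Krt18, Krt19, Epcam, Cdh1, Elf5, Prlr and Kit) was 1066, 1126, 2220 and 2399 in Stat3 ko, 2461, 1827, 2363 and 2281 in Chi3l1 ko, and 2404, 1970, 2107 and 2822 in WT. Replicates 1 and 2 of Stat3 ko were the lowest of all, and 1 of the 8, Elf5, was called lower (log2 difference −1.77, limma adjusted p = 0.0012). The fibroblast sum of 11 markers ranged from 68.0 to 146 FPKM in Stat3 ko, from 32.2 to 50.3 in Chi3l1 ko and from 26.8 to 58.4 in WT, with Lsp1 (1.52, adjusted p = 0.0087), Pdgfrb (0.92, 0.020) and Pdgfra (1.19, 0.034) called higher by limma among the 8 tested. The Pdgfrb call ended without WT replicate 1 (0.0679) or 4 (0.0614), and the Pdgfra call without WT replicate 1 (0.105), 2 (0.0532) or 4 (0.0933). The Lsp1 call held with each library left out, but Lsp1 is a fibroblast marker only by the list used here. Whether its RNA came from fibroblasts or from the lymphocytes whose markers are given below was not tested. The adipocyte sum ranged from 904 to 8673 FPKM in Stat3 ko, from 209 to 1128 in Chi3l1 ko and from 119 to 508 in WT, with 5 of 10 markers called higher. Of the 3 of these with the lowest adjusted p, Cfd lost its call without WT replicate 1 (0.0898), 3 (0.0658) or 4 (0.0678), Plin4 without Stat3 ko replicate 2 (0.0512) or any 1 of the WT libraries (up to 0.104), and Fabp4 without Stat3 ko replicate 1 (0.0561) or 2 (0.0776) or any 1 of the WT libraries (0.0554 to 0.110). The part of these differences in the collagen results was not tested.

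Set against the luminal marker sum of the same library, the falls of Stat3 ko remained without overlap for 6 genes. These 6 were already without overlap in FPKM. The share of all tested genes without overlap on this scale, lower or higher, was not counted. Genes without overlap in this paragraph are therefore not given as particular to collagen genes. The luminal markers did not move alike, with log2 differences of Stat3 ko against WT from −1.77 (Elf5) to −0.15 (Kit). The falls of Col9a1 (−2.40), Col11a1 (−2.29) and Col4a6 (−2.12) exceeded that of Elf5. Those of Col16a1 (−1.70), Col9a3 (−1.67) and Col4a5 (−1.52) did not. The part of luminal cell number in these falls was not tested, and the percentages depend on the markers in the luminal sum. As a percentage of that sum, the Stat3 ko mean was 16.2% of the WT mean for Col11a1, 25.7% for Col9a1, 28.3% for Col4a6, 41.9% for Col9a3, 43.8% for Col16a1 and 46.7% for Col4a5. For Col7a1, at 79.0% of the WT mean, and Col9a2, at 77.7%, the libraries overlapped. Col27a1 stood at 404% and Col15a1 at 298% of the WT mean, both without overlap. Without Stat3 ko replicate 1, Col15a1 stood at 147%; leaving out any other 1 of the Stat3 ko or WT libraries, a step chosen after seeing the data, moved none of these 10 percentages by over 1.5 times.

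**Figure D5:**
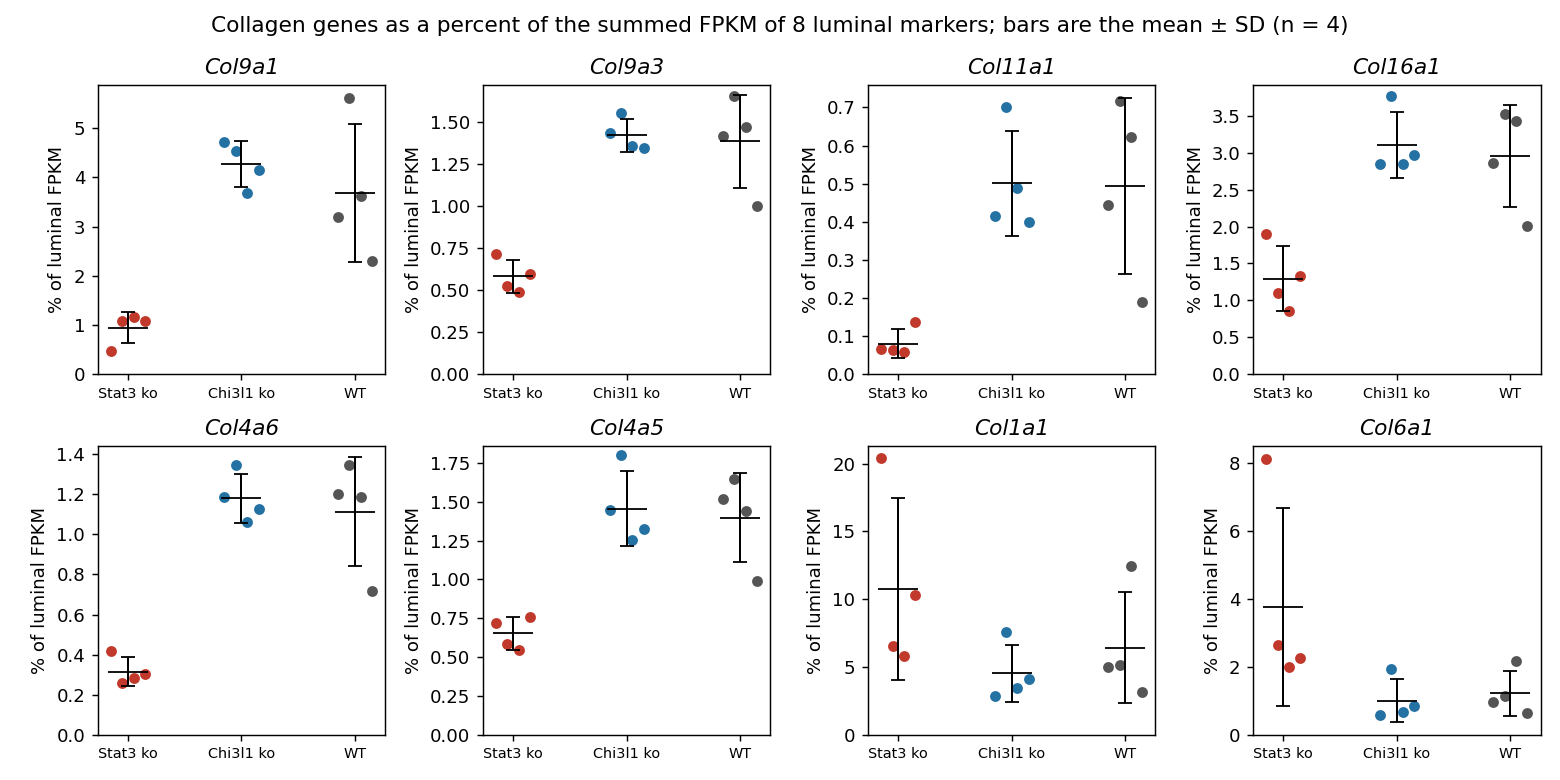
FPKM of 8 collagen genes as a percentage of the summed FPKM of 8 luminal epithelial markers in the same library, by genotype, with the mean and SD as bars. Stat3 ko points lie below all WT points for Col9a1, Col9a3, Col11a1, Col16a1, Col4a6 and Col4a5, and overlap with or exceed them for Col1a1 and Col6a1.

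The other markers touch these genes in different ways. The cartilage list (6 genes) summed to between 0.879 and 1.62 FPKM in Stat3 ko, 0.440 and 1.28 FPKM in Chi3l1 ko and 0.780 and 1.65 FPKM in WT, so the markers of the tissue best known for types IX and XI were near 0 in all 3 genotypes; Acan, the main proteoglycan of cartilage, reached no more than 0.0191 FPKM in any library. The Schwann cell list summed to between 59.8 and 138 FPKM in Stat3 ko, 143 and 170 FPKM in Chi3l1 ko and 148 and 163 FPKM in WT, of which most was Sox10, a transcription factor also made by mammary epithelium. Sox10 had 31.8, 49.8, 82.7 and 122 FPKM in Stat3 ko, 151, 115, 152 and 132 FPKM in Chi3l1 ko and 147, 128, 144 and 134 FPKM in WT. Its Stat3 ko libraries were below all WT libraries (log2 difference −1.11, limma adjusted p = 0.041), and Sox5, a second factor of this family, was called at −0.45 with an adjusted p of 0.0498; the list of 5 SOX factors was chosen after values had been seen. Both calls ended without Stat3 ko replicate 1 (0.0536 for Sox10, 0.0793 for Sox5) or 2 (0.102, 0.115) or any 1 of the WT libraries (0.0704 to 0.109 for Sox10, 0.0906 to 0.109 for Sox5). Basal and myoepithelial markers had 0 of 7 called; their sums ranged from 41.2 to 341 FPKM in Stat3 ko, from 109 to 133 in Chi3l1 ko and from 55.5 to 148 in WT. Blood endothelial markers summed to between 44.9 and 148 FPKM in Stat3 ko, 26.0 and 49.8 in Chi3l1 ko and 30.9 and 45.7 in WT, with 1 of 8 called higher, a call that ended without Stat3 ko replicate 1 (0.0747) or 2 (0.0989) or any 1 of the WT libraries (0.0576 to 0.112).

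Of the remaining lists, pericyte and smooth muscle markers had 0 of 7 called, skeletal muscle 0 of 8, T cell 2 of 8 higher, B cell 1 of 3 higher and lymphatic endothelium 1 of 2 higher. The T cell calls, Cd2 and Cd8a, ended without Stat3 ko replicate 2 (0.0762 for Cd2, 0.0929 for Cd8a) or 3 (0.0664, 0.0688) or WT replicate 1 (0.113, 0.108), 3 (0.0886, 0.0974) or 4 (0.0933, 0.107), the B cell call, Ighm, without WT replicate 1 (0.0592) or 4 (0.0514), and the lymphatic call, Lyve1, without WT replicate 1 (0.0622) or 4 (0.0524). Stat3 ko replicate 2, the lowest Stat3 ko library for 22 of the 27 collagen genes, had the highest sums of all libraries for skeletal muscle (9500 FPKM), T cell (243 FPKM) and B cell markers (617 FPKM). The skeletal muscle sum was 5284 FPKM in Stat3 ko replicate 4 and 263 and 46.0 FPKM in Stat3 ko replicates 1 and 3, against 33.1 to 7801 FPKM in Chi3l1 ko and 12.1 to 2550 FPKM in WT. The B cell sums of Stat3 ko, 30.9 to 617 FPKM, did not overlap with those of WT, 8.51 to 19.9 FPKM, and the T cell sums, 24.8 to 243 FPKM in Stat3 ko against 14.5 to 31.4 FPKM in WT, did. Whether any of these bears on the collagen results was not tested.

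Among the 17 collagen genes below the filter, the count model edgeR, which needs no minimum in FPKM, added several. On counts recovered from the deposited FPKM values it tested 39 of the 44 and called 3 higher and 10 lower in Stat3 ko, against 10.0% of all genes it tested higher and 7.97% lower (18.0% in either direction). The 10 were the 7 above with Col2a1, Col10a1 and Col25a1, and the 3 were Col27a1 with Col13a1 and Col23a1. DESeq2 tested 43 and called 6 higher and 10 lower, against 13.4% and 8.36% of all genes (21.7% in either direction). Over all genes the split between higher and lower calls in Stat3 ko against WT thus turned round with the count models. For collagen genes falls remained the majority in that comparison. Against Chi3l1 ko they did so with edgeR (5 higher and 7 lower) but not with DESeq2 (12 higher and 11 lower).

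Col2a1, the chain of cartilage fibrils, had 0, 6, 10 and 2 counts in Stat3 ko, 28, 43, 35 and 35 counts in Chi3l1 ko and 27, 69, 24 and 20 counts in WT. Col10a1, the chain of growth-plate cartilage, had 1, 3, 2 and 0 counts in Stat3 ko, 1, 24, 9 and 13 counts in Chi3l1 ko and 22, 19, 27 and 8 counts in WT. The Stat3 ko libraries of both genes lay below those of WT, at log2 fold changes of −2.87 for Col2a1 (edgeR adjusted p = 0.0197) and −3.51 for Col10a1 (edgeR adjusted p = 0.0254). Col25a1, a transmembrane collagen of nerve and muscle, had 10, 5, 22 and 25 counts in Stat3 ko, 69, 51, 16 and 42 counts in Chi3l1 ko and 39, 83, 66 and 40 counts in WT (−1.82, edgeR adjusted p = 0.0302). Col13a1 and Col23a1 are transmembrane collagens as well. Col13a1 had 85, 32, 57 and 12 counts in Stat3 ko, 3, 14, 6 and 2 counts in Chi3l1 ko and 11, 5, 13 and 3 counts in WT (2.60, edgeR adjusted p = 0.0351), and Col23a1 had 145, 91, 100 and 40 counts in Stat3 ko, 11, 30, 21 and 27 counts in Chi3l1 ko and 12, 19, 32 and 8 counts in WT (2.5, edgeR adjusted p = 0.0159). Each of these genes rests on few fragments, and only Col23a1 was higher in every Stat3 ko library than in every WT library.

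The genes that make, process and bind collagen were read from lists in the same limma fit. Each count stands against the 14.0% of all tested genes called, 8.39% lower and 5.61% higher, and none is given as particular to its list. Of 18 genes for hydroxylation, glycosylation and folding of chains, 3 fell and none rose: P3h2, a prolyl 3-hydroxylase (−1.17 ± 0.19 SE, adjusted p = 0.0049), P4hb, the shared subunit of prolyl 4-hydroxylases (−0.73, adjusted p = 0.0205), and Plod3, a lysyl hydroxylase (−0.51, adjusted p = 0.0355). P4ha1 (0.43), Plod2 (−0.36) and the collagen chaperone Serpinh1 (0.21) were not called. Of 6 genes for cleavage of propeptides 1 fell, the protease Bmp1 (−0.85, adjusted p = 0.0177), and of 5 cross-linking genes none was called, among them Lox (0.29) and Loxl2 (0.59). The fibril-associated proteins, such as small proteoglycans and Sparc (0.68), had 0 of 13 called at a median log2 difference of 0.68. Of these calls, that of P3h2 held with each library left out; P4hb lost its call without WT replicate 1 (adjusted p = 0.0644) or 4 (0.0615), Bmp1 without WT replicate 1 (0.0591) or 3 (0.0511), and Plod3 without any 1 of the WT libraries (0.0683 to 0.0824).

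Against the same background of 5.61% higher and 8.39% lower, the remaining lists had 1 to 3 calls each. Among 11 genes of collagen breakdown and uptake the gelatinase Mmp9 rose (0.86, limma adjusted p = 0.025), a call lost without WT replicate 1 (0.0815) or 4 (0.0699). Of 8 collagen receptors, Itga2, the α2 integrin chain of epithelium, fell (−0.82, adjusted p = 0.0059 by limma), as did its partner Itgb1 (−0.41, 0.045), and Ddr2, a receptor tyrosine kinase of stroma, rose (1.16, 0.033). The Itga2 call held with each library left out; that of Ddr2 ended without Stat3 ko replicate 2 (0.0559) or WT replicate 1 (0.0906), 2 (0.0616) or 4 (0.0927), and that of Itgb1 ended without Stat3 ko replicate 2 (0.0723) or 3 (0.0596) or any 1 of the WT libraries (0.0802 to 0.126). Of 18 genes of TGF-beta signalling, which drives collagen transcription in fibroblasts, the ligands Tgfb3 (−1.25, adjusted p = 0.0039) and Tgfb2 (−1.07, 0.0186) fell and Tgfb1 (0.55, 0.036) rose by limma; the Tgfb2 call ended without WT replicate 1 (0.0570) or 4 (0.0577), and the Tgfb1 call without Stat3 ko replicate 2 (0.0814) or WT replicate 1 (0.110), 3 (0.0548) or 4 (0.101). Of 16 basement membrane partners 3 fell and none rose, among them Lamb3, a laminin chain of epithelium (−1.34, limma adjusted p = 0.0090), and the proteoglycan Agrn (−0.96, limma adjusted p = 0.0144). The calls of Tgfb3, Lamb3 and Agrn held with each library left out.

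In Chi3l1 ko glands none of the 27 collagen genes was called against WT, and none was at an unadjusted p under 0.05 in limma; over all tested genes limma called 0.00733%. With edgeR 0 of 39 collagen genes were called, with none at an unadjusted p under 0.05, against 0.00608% of all genes called, which was 1 gene lower. With DESeq2 0 of 43 were called, with 1 at an unadjusted p under 0.05, against 0.0357% of all genes (0.00510% higher and 0.0306% lower). The log2 differences, as Chi3l1 ko minus WT, lay between −0.67 and 0.30 with a median of −0.16, against 0.003 over all tested genes. All 27 had a 95% interval that includes 0, and for 14 of them the interval lay within a 2-fold change in either direction. The lowest bound of these intervals was −1.72 and the highest 1.25, and the remaining 13, which include Col1a1, Col3a1 and Col9a1, had intervals that reach beyond 2-fold. No collagen gene had groups without overlap, against 1.36% of all tested genes lower and 1.12% higher. No gene of the pathway and marker lists was called in this comparison.

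Stat3 ko glands were also set against Chi3l1 ko glands, a comparison that shares its Stat3 ko libraries with the one against WT. Here 7 collagen genes were lower and 2 higher in Stat3 ko by limma, against 8.0% of all tested genes lower and 5.19% higher (13.2% in either direction). The log2 differences, as Stat3 ko minus Chi3l1 ko, were −2.63 for Col9a1, −2.36 for Col11a1, −2.18 for Col4a6, −1.74 for Col16a1, −1.67 for Col9a3 and −1.54 for Col4a5. Col9a2 was called at −1.11 ± 0.31 (SE; limma adjusted p = 0.0384), and Col7a1 was not, at −0.57 ± 0.19, although its libraries did not overlap. Col27a1 rose by 0.68 ± 0.15 (adjusted p = 0.0157) and Col6a1 by 1.28 ± 0.37 (SE; adjusted p = 0.0446), with Col6a1 at 86.4, 29.7, 44.5 and 54.4 FPKM in Stat3 ko and 14.7, 35.2, 15.9 and 19.2 FPKM in Chi3l1 ko. With edgeR 5 collagen genes were called higher and 7 lower in this comparison, against 7.80% and 7.30% of all genes, and with DESeq2 12 higher and 11 lower, against 12.1% and 7.92%. Groups without overlap were found for 7 genes lower and 1 higher, against 10.2% and 6.85% of all tested genes.

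Of these calls, those of Col9a2 and Col6a1 depended on single libraries. The Col9a2 call ended without Stat3 ko replicate 1 (limma adjusted p = 0.0760) or 2 (0.0909) or Chi3l1 ko replicate 1 (0.110), 3 (0.0994) or 4 (0.0703). The Col6a1 call ended without Stat3 ko replicate 1 (0.0858), 3 (0.0562) or 4 (0.0590) or Chi3l1 ko replicate 1 (0.127), 3 (0.115) or 4 (0.106), and that of Col27a1 without Chi3l1 ko replicate 1 (0.0560). The calls of Col9a1, Col9a3, Col11a1, Col16a1, Col4a5 and Col4a6 held with each library left out in both comparisons.

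The authors' deposited table of Stat3 ko against WT lists genes with an unadjusted p under 0.05 and holds 21 collagen genes among 6155. At an adjusted p under 0.05 in the authors' deposited table, 10 of them were lower and 4 higher. The share of all genes at this threshold was not counted there, so these counts are not given as particular to collagen genes. Among those called were Col11a1 at −2.88, Col4a6 at −2.28 and Col9a1 at −2.27 on the log2 scale, and Col27a1 at 1.28. The authors' deposited table for Chi3l1 ko holds 1 collagen gene among 824, Col26a1, with an adjusted p of 1.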

How the data were processed

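RNA-seq libraries of mammary glands (3 genotypes, 4 libraries each) were grouped by the labels' genotype. Per the submitters' processing notes, Trimmomatic, STAR, HTSeq, edgeR, limma and GRCm38 (mm10) were used; versions and settings are not given in the sources used here. The authors deposited FPKM per gene and library. They also deposited count values for subsets of genes, normalized counts (a signal scaled between libraries, not used in tests), and tables of log2 fold changes with p-values. Whole counts were recovered from FPKM, gene length and library total; the largest deviation from a whole number was 0.000104 read, and 0 of 55832 deposited counts differed. Symbols that had become dates were restored for 27 genes.

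The main test was limma (3.58.1, trend) on log2(FPKM + 1) over genes that reached 1 FPKM in 4 or more libraries, with 3 group means, two-sided, and Benjamini-Hochberg adjustment over all 13643 genes (threshold 0.05). Alternatives were another pseudocount (0.1), other filters, scalings, edgeR (4.0.16) and DESeq2 (1.42.0) on recovered counts, only the compared groups, no libraries over 2% mitochondrial counts, and each library left out; R was 4.3.3. The fits were tested on simulated data. For Chi3l1 ko against WT, limma recovered 6.12% of simulated 1.5-fold, 42% of 2-fold and 81% of 4-fold changes. For Stat3 ko against WT these were 10%, 43.8% and 78.9%, with 50, 48 and 95 changed genes among 14114 tested. Changes of 2-fold or less were thus often missed in the simulated data. In the deposited data limma called 14.0% of tested genes for Stat3 ko against WT. Recovery with that many calls was not tested. Gene coordinates are the deposited ones (44 of 44 equal in GENCODE M21), promoters are from RefSeq GRCm38.p6. The collagen genes, the lists and the tests were chosen with earlier results of these data known. Named were all collagen genes and, per list, up to 3 called genes with the lowest adjusted p plus P4ha1, Plod2, Serpinh1, Lox, Loxl2 and Sparc; 1 called list gene is not reported here.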

Additional observations from a re-analysis of the deposited data

Results flagged for a closer look

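In 4 collagen genes 1 library lay far from the other 3 of its group by Dixon's criterion, which chance meets in about 1 of 20 groups; 81 groups (27 genes in 3 genotypes) were looked at, in which chance gives 4.05 such cases, so their number does not exceed it. Col12a1 had 12.87 FPKM in Chi3l1 ko replicate 2, against 7.45 to 8.05 FPKM in the other Chi3l1 ko libraries. In WT replicate 3, Col1a2 had 115.1 FPKM, against 39.3 to 51.5 FPKM in the other WT libraries, Col5a2 had 27.6 FPKM, against 12.4 to 14.7 FPKM, and Col8a1 had 8.53 FPKM, against 4.73 to 5.15 FPKM. WT replicate 3 also held the highest sum of skin and hair follicle markers, 67.8 FPKM, and Chi3l1 ko replicate 2 a skeletal muscle marker sum of 7801 FPKM; their part in these values was not tested.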

How the results depend on the processing

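The counts of called collagen genes, the 27 differences of Stat3 ko against WT and the 9 called differences of Stat3 ko against Chi3l1 ko were recomputed under 17 or 18 alternatives each; ratios and class shares were not, and the luminal-relative percentages were recomputed, after seeing the data, with each library left out. The falls of Col9a1, Col9a3, Col11a1, Col16a1, Col4a5 and Col4a6 in Stat3 ko were called in all 18, against WT and against Chi3l1 ko. The 17 called differences of collagen genes gave 303 alternative values, of which 34 were no longer called and 0 changed sign. Against WT, Col7a1 lost its call with no filter (adjusted p = 0.0719), with only the compared groups (0.0999) and without libraries over 2% mitochondrial counts (0.121), and Col27a1 in the last 2 of these (0.0641 and 0.140). Against Chi3l1 ko, Col6a1 lost its call in 9 alternatives, Col9a2 in 10 and Col27a1 in 3. The count of collagen genes higher in Stat3 ko than in WT, 1, was 2 with no filter, 0 with a mean of at least 5 FPKM, 3 with edgeR, 4 with edgeR and no filter, 6 with DESeq2, 0 with only the compared groups, 0 without high mitochondrial libraries and 0 to 1 with a library left out. The count lower, 7, was 6 to 10 in all. The count higher than in Chi3l1 ko, 2, was 1 with a mean of at least 5 FPKM, 5 with edgeR, 5 with edgeR and no filter, 12 with DESeq2, 0 with only the compared groups, 4 without high mitochondrial libraries and 0 to 4 with a library left out; the count lower, 7, was 11 with DESeq2 and 6 to 8 with a library left out. The count models test more low genes than limma; the cause of the other shifts was not tested. Among the results recomputed, signs turned in differences of Stat3 ko against WT that were not called. Without high mitochondrial libraries Col12a1 was at 0.27, Col8a1 at 0.13 and Col18a1 at −0.14; with quantile normalization Col18a1 was at −0.024, and with DESeq2 Col8a1 was at 0.00056. With a library left out, Col18a1 ranged from −0.40 to 0.36, Col8a1 from −0.34 to 0.25, Col4a1 from −0.15 to 0.51, Col4a2 from −0.066 to 0.60, Col1a1 from −0.024 to 0.55 and Serpinh1 from −0.070 to 0.52. Of 30 called genes of the lists 28 were recomputed, of which 6 kept the call in every alternative and 8 with each library left out; Plod2 was called only with quantile normalization (−0.49, limma adjusted p = 0.0469). The scalings moved the median of all genes by less than 0.1 on the log2 scale. Depth limits the 17 collagen genes under the filter, which rest on few fragments. No paired analysis was possible because the labels give no replicate numbers that groups share.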
